A study of Rattus norvegicus with 27 samples.

Results

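The step from 24 h to 48 h in cultured rat oligodendrocyte precursor cells (OPCs) kept in thyroid hormone and interferon gamma (T3+IFNγ) is described here, gene by gene. The step compares the 3 arrays labelled T3 and IFNγ at 48 h with the 3 labelled T3 and IFNγ at 24 h, that is 6 of the 27 arrays of the series, and each array at 48 h was paired with the array of the same donor at 24 h. All 14217 genes with a probe set of a single symbol were used, each through its brightest probe set. The 6 arrays of the same step without the cytokine, T3 at 24 h and T3 at 48 h, served as the comparison.

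The OPCs came from cerebral cortices of postnatal rat pups, were selected with beads for a precursor surface antigen and were first expanded with PDGF. Growth factor was then withdrawn and T3, which drives OPCs to become oligodendrocytes, was added alone or together with IFNγ. The groups compared therefore share PDGF withdrawal and T3, and differ in time (24 h or 48 h) and in IFNγ. The fit and the levels over the course also used the other groups. These were OPCs under PDGF at 0 h, and T3 with or without IFNγ at 8 h and 96 h. The labels give the same 3 donors in each of 9 groups, and how many pups make up a donor is not given in the sources used here.

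OPCs divide in response to PDGF, leave the cell cycle when it is withdrawn, and switch on myelin genes in waves, from early structural proteins to late membrane glycoproteins. IFNγ, a T cell cytokine, acts through the JAK and STAT proteins to switch on antigen processing, MHC and GTPase genes, and it is known to slow oligodendrocyte differentiation. The comparison of 48 h with 24 h asks which of these programs were still moving once IFNγ had been present for a day.

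Signals are log2 values after RMA, so a rise by a unit is a doubling, and genes were called at a limma adjusted p below 0.05. The arrays held signal for markers of their label at both times, at different levels. Over the 6 arrays Olig1 lay between 12.31 and 13.01, Pdgfra between 12.09 and 12.99 and Sox10 between 9.36 and 10.19. Lower were Olig2, between 7.39 and 8.09, and Cspg4, between 7.21 and 8.63. All values of the table run from 2.28 to 14.5. Signals of other cell types were present too. Gfap of astrocytes lay between 9.28 and 12.21. Microglia markers differed in level, with Fcer1g between 9.03 and 11.33 and Aif1 between 7.19 and 10.29. Csf1r lay between 5.43 and 7.48, Itgam between 4.84 and 6.05 and Cx3cr1 between 5.61 and 6.12. Of neuron markers, Map2 lay between 11.34 and 11.90 and Nefl between 4.41 and 5.85. Pecam1 of endothelium lay between 3.43 and 3.95 and Cd3e of T cells between 4.15 and 4.58. These are bulk cultures, in which fewer cells of a type and less RNA per cell cannot be told apart. The array of donor 2 at 24 h with IFNγ stood apart in RNA quality, with a 3′ minus 5′ signal of 0.108 for Gapdh against -0.261 to -0.064 on the other 11 arrays at 24 and 48 h.

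Between 24 h and 48 h under T3+IFNγ, 1071 genes rose and 1977 fell (7.53% and 13.9% of all genes, 21.4% together, limma with donor as a block). Of these, 271 rose and 147 fell by 2-fold or more (1.91% and 1.03% of all genes). The median change of all genes was -0.01. The arrays of the 2 times did not overlap for 29.7% of all genes. The count rested partly on single donors, since 3335, 1138 and 1246 genes were called without donor 1, 2 and 3, and 2023 without the array of donor 2 at 24 h. Centring each array on its median moved the split to 1326 higher and 1484 lower.

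The 12 largest rises included Scg2, Calcb, Vgf and Egr2 and, among genes known from oligodendrocytes, Mag, Tppp, Enpp6 and Cldn11. Scg2, which encodes secretogranin II of secretory granules, had signals of 3.98, 4.31 and 3.70 in donors 1 to 3 at 24 h. At 48 h they were 8.82, 6.90 and 8.34, a rise of 4.03 ± 0.62 on the log2 scale (SE, limma adjusted p = 8.94e-05). All 3 donors rose without overlap, donor 2 least. The signals at 24 h were in the low part of a table whose median is 5.99, and the deposited values do not say whether a probe set is above background, so the size of rises from such a level is uncertain. Calcb, the gene of the beta form of calcitonin gene-related peptide, went from 5.35, 5.46 and 5.76 to 10.05, 7.67 and 8.92 (log2 3.36 ± 0.59, limma adjusted p = 0.000329). Vgf, a neuropeptide precursor, went from 4.83, 4.90 and 4.81 to 8.10, 7.32 and 7.99 (log2 2.96 ± 0.35, limma adjusted p = 4.33e-06). Its 3 arrays at 24 h lay close together. The transcription factor Egr2 went from 5.46, 5.08 and 4.78 to 8.08, 8.20 and 8.51 (log2 3.15, limma adjusted p = 6.41e-06), and another of its probe sets rose by 0.39.

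**Figure D1:**
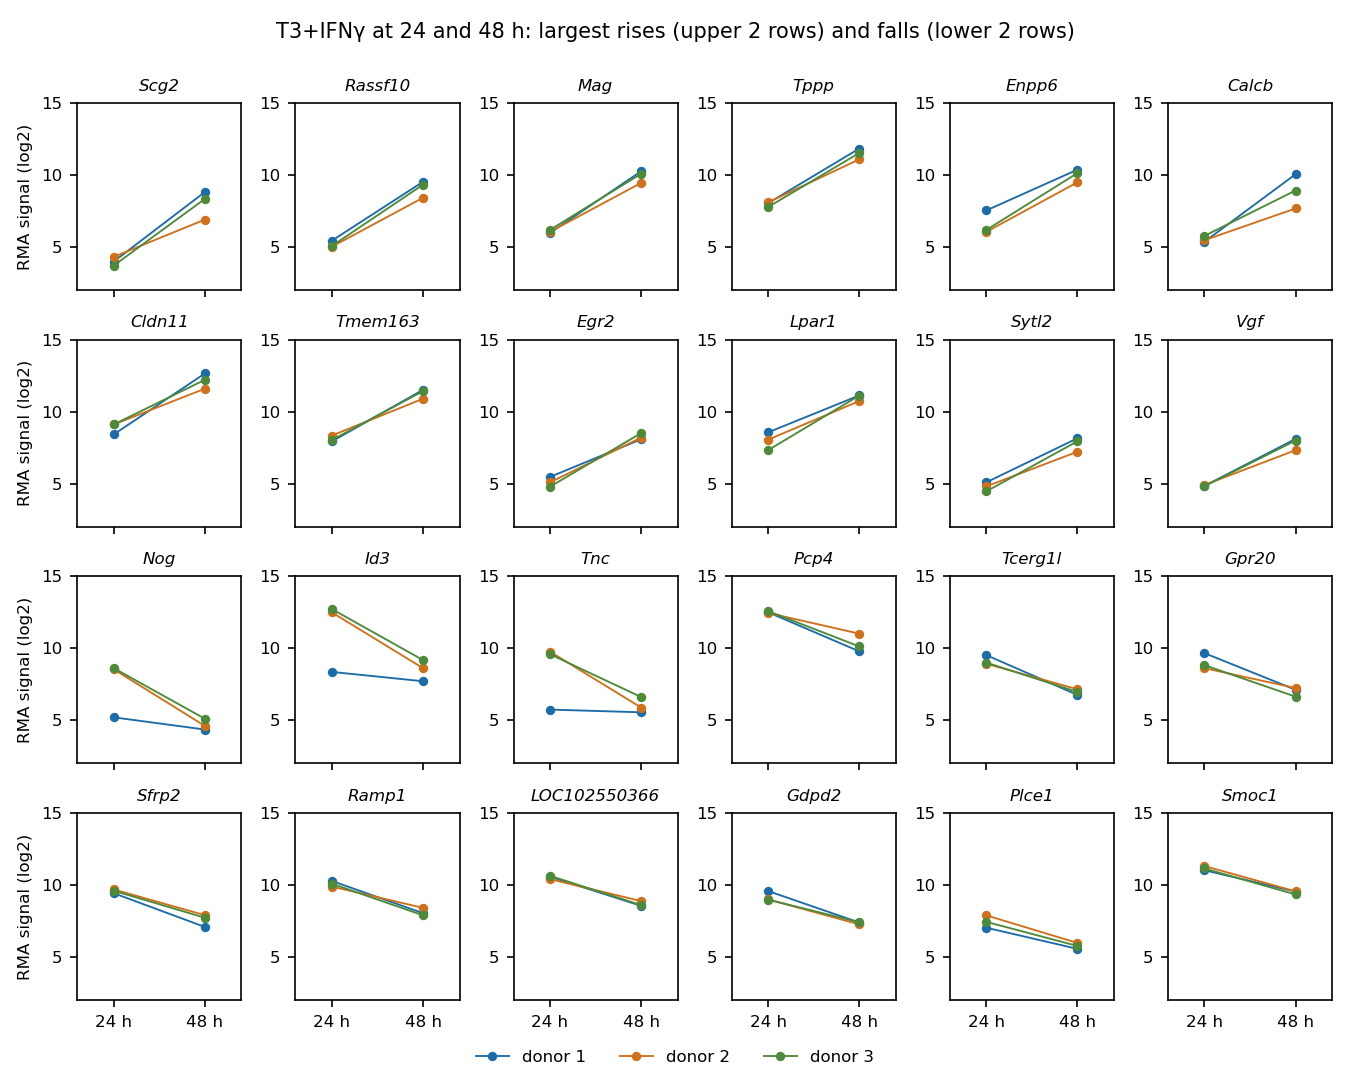
RMA signals (log2) of the 12 genes with the largest rises and the 12 with the largest falls under T3+IFNγ, at 24 h and 48 h, with 1 line per donor. All were picked among called genes with the same sign in all 3 donors. Scg2 and Calcb rise by less in donor 2, and Nog, Id3 and Tnc start low in donor 1 and fall mainly in donors 2 and 3.

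Among the oligodendrocyte genes, Mag, the myelin-associated glycoprotein, went from 5.97, 6.05 and 6.18 at 24 h to 10.26, 9.45 and 10.09 at 48 h, a 14.6-fold rise (log2 3.87 ± 0.21, limma adjusted p = 2.64e-10). Tppp, a microtubule-stabilizing protein of oligodendrocytes, rose by 3.52 ± 0.16 and had the smallest adjusted p of the 12 (limma, 1.93e-11). Enpp6, a choline phosphodiesterase of newly formed oligodendrocytes, rose by 3.42 and Cldn11, the tight junction protein of myelin, by 3.28. The remaining genes of the 12 were Rassf10 (3.93), the zinc transporter Tmem163 (3.18), the lysophosphatidic acid receptor Lpar1 (3.02) and Sytl2 (2.99), a vesicle transport protein. Under T3 alone 9 of the 12 rose as well, by between 1.37 for Egr2 and 4.16 for Rassf10. Scg2, Calcb and Vgf had changes of 0.80, 0.58 and 0.42 there that did not pass the test, and of the 12 the difference between the steps was called for Vgf.

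The first 3 of the 12 largest falls, Nog, Id3 and Tnc, differed between donors. Nog, which encodes noggin, an antagonist of bone morphogenetic proteins (BMP), had signals of 5.20, 8.54 and 8.62 at 24 h and of 4.35, 4.60 and 5.10 at 48 h (log2 -2.77 ± 0.66, limma adjusted p = 0.00432). Id3, a BMP-induced inhibitor of helix-loop-helix factors, went from 8.36, 12.50 and 12.73 to 7.71, 8.62 and 9.18 (log2 -2.69 ± 0.69, limma adjusted p = 0.00739). Tnc, the matrix protein tenascin C, went from 5.74, 9.77 and 9.59 to 5.55, 5.88 and 6.61 (log2 -2.35 ± 0.59, limma adjusted p = 0.0061). In each, donor 1 was already low at 24 h, and the fall was carried by donors 2 and 3. Without donor 2 or donor 3, none of the 3 was called (limma adjusted p = 0.156 and 0.134 for Nog, 0.208 and 0.169 for Id3, 0.242 and 0.154 for Tnc). Without the single array of donor 2 at 24 h Nog was called and the others were not (limma adjusted p = 0.0372 for Nog, 0.0502 for Id3, 0.0607 for Tnc).

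Astrocyte genes were likewise lowest in donor 1 at 24 h. Gfap had signals of 9.28, 12.21 and 11.79 in donors 1 to 3 at 24 h and of 11.02, 10.14 and 10.54 at 48 h, and Aqp4, the water channel, had 9.69, 11.40 and 11.38 and then 9.84, 10.32 and 10.46. Neither change passed the test (limma adjusted p = 0.574 and 0.111), and of the 15 astrocyte markers measured, Aldh1l1 alone was called (log2 -1.03, limma adjusted p = 0.00441). None was called without donor 2 or 3, whereas 6 fell and 2 rose without donor 1. The list had mean signals of 9.25, 9.88 and 9.78 at the earlier time and of 9.34, 9.41 and 9.55 at the later. The part of astrocytes in the falls of Nog, Id3 and Tnc was not tested.

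All 12 falls, Nog, Id3 and Tnc included, were picked among called genes with the same sign in all 3 donors. The other 9 also differed in size between donors. Pcp4 fell by 2.73, 1.44 and 2.45 on the log2 scale in donors 1 to 3. Smoc1, a secreted matrix protein, went from 11.03, 11.32 and 11.15 to 9.54, 9.56 and 9.34 (log2 -1.69 ± 0.13, limma adjusted p = 2.78e-08). Sfrp2, a secreted Wnt inhibitor, fell by 2.01 on the log2 scale, from 9.43, 9.69 and 9.60 to 7.08, 7.90 and 7.72. Pcp4 encodes a calmodulin-binding protein (fitted change -2.21) and Ramp1 a subunit of the receptor for calcitonin gene-related peptide (-1.97). Tcerg1l (-2.20), the receptor gene Gpr20 (-2.04), LOC102550366 (-1.86), the phosphodiesterase Gdpd2 (-1.83) and the phospholipase Plce1 (-1.69) complete the 12. All 12 falls were also called under T3 alone.

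Cell cycle genes rose together at this step. Of 43 cell cycle and DNA replication genes measured, 39 rose and none fell (90.7% called against 21.4% of all genes), with a median change of 1.11 against -0.01. The arrays of the 2 times did not overlap for 41 of the 43, against 29.7% of all genes. Uhrf1, which maintains DNA methylation at replication forks, had signals of 4.73, 6.16 and 6.13 at 24 h and of 7.56, 7.82 and 7.91 at 48 h, a 4.26-fold rise (log2 2.09 ± 0.23, limma adjusted p = 1.82e-06). Mcm6, a subunit of the replicative helicase, went from 6.53, 7.97 and 7.89 to 9.14, 9.27 and 9.43 (log2 1.82 ± 0.26, limma adjusted p = 4.65e-05). Donor 1 was lowest at 24 h for both, and the donors were close together at 48 h.

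Other members of the list are known from mitosis or chromatin. The mitotic kinase Ttk rose by 1.67 and the chromatin remodeler Hells by 1.54, the latter from 4.58, 5.38 and 5.20 to 6.42, 6.76 and 6.61. Mki67, the proliferation marker, went from 5.90, 8.00 and 7.96 to 8.60, 8.88 and 8.98 (log2 1.53 ± 0.30, limma adjusted p = 0.000964), and Cdk1, the kinase that starts mitosis, from 6.76, 8.33 and 8.64 to 9.35, 9.26 and 9.59 (log2 1.49 ± 0.37, limma adjusted p = 0.00554). Ccnb2, Tyms, Cdc20 and Cdca3 did not pass the test, with changes of 0.21, 0.37, 0.46 and 0.82. Within donors the median change of the list was 1.66, 0.77 and 0.78, so donor 1 moved most, and 29, 29 and 27 of the 43 were called higher without donor 1, 2 and 3. Fewer genes of the list were called under T3 alone, 15 of 43 with a median of 0.63, yet the difference between the 2 steps itself was called for only 3, Uhrf1 (1.53, limma adjusted p = 0.019), the replication initiation factor Cdc45 (0.74, 0.0344) and the replication clamp Pcna (0.54, 0.0254).

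The level of the list over the whole course put this rise in place. Its mean signal was 10.50 ± 0.07 (SD, n = 3) under PDGF at 0 h, and after 8 h of T3+IFNγ it was still 10.15 ± 0.28. From there it reached 7.21 ± 0.58 by 24 h and stood at 8.30 ± 0.12 by 48 h, with 6.66 ± 0.44 measured at 96 h. Under T3 it was 7.85 ± 0.50 at 24 h, 8.41 ± 0.17 at 48 h and 6.54 ± 0.38 at 96 h. The levels at 48 h overlapped between the cultures with IFNγ (8.22 to 8.44) and without (8.22 to 8.55). Among the D cyclins and CDK inhibitors, 5 of 15 rose and 2 fell (46.7% called against 21.4% of all genes, median 0.12). Ccnd1, the cyclin that PDGF induces, rose from 10.79, 11.11 and 11.29 to 12.29, 12.22 and 12.12 (limma adjusted p = 0.00162), and the CDK inhibitor gene Cdkn2a from 4.98, 4.48 and 4.85 to 7.21, 5.26 and 5.89 (limma adjusted p = 0.00215). Rbl1 rose by 0.99, while its relative Rbl2 fell by 0.55 and Cdk4 by 0.26.

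**Figure D2:**
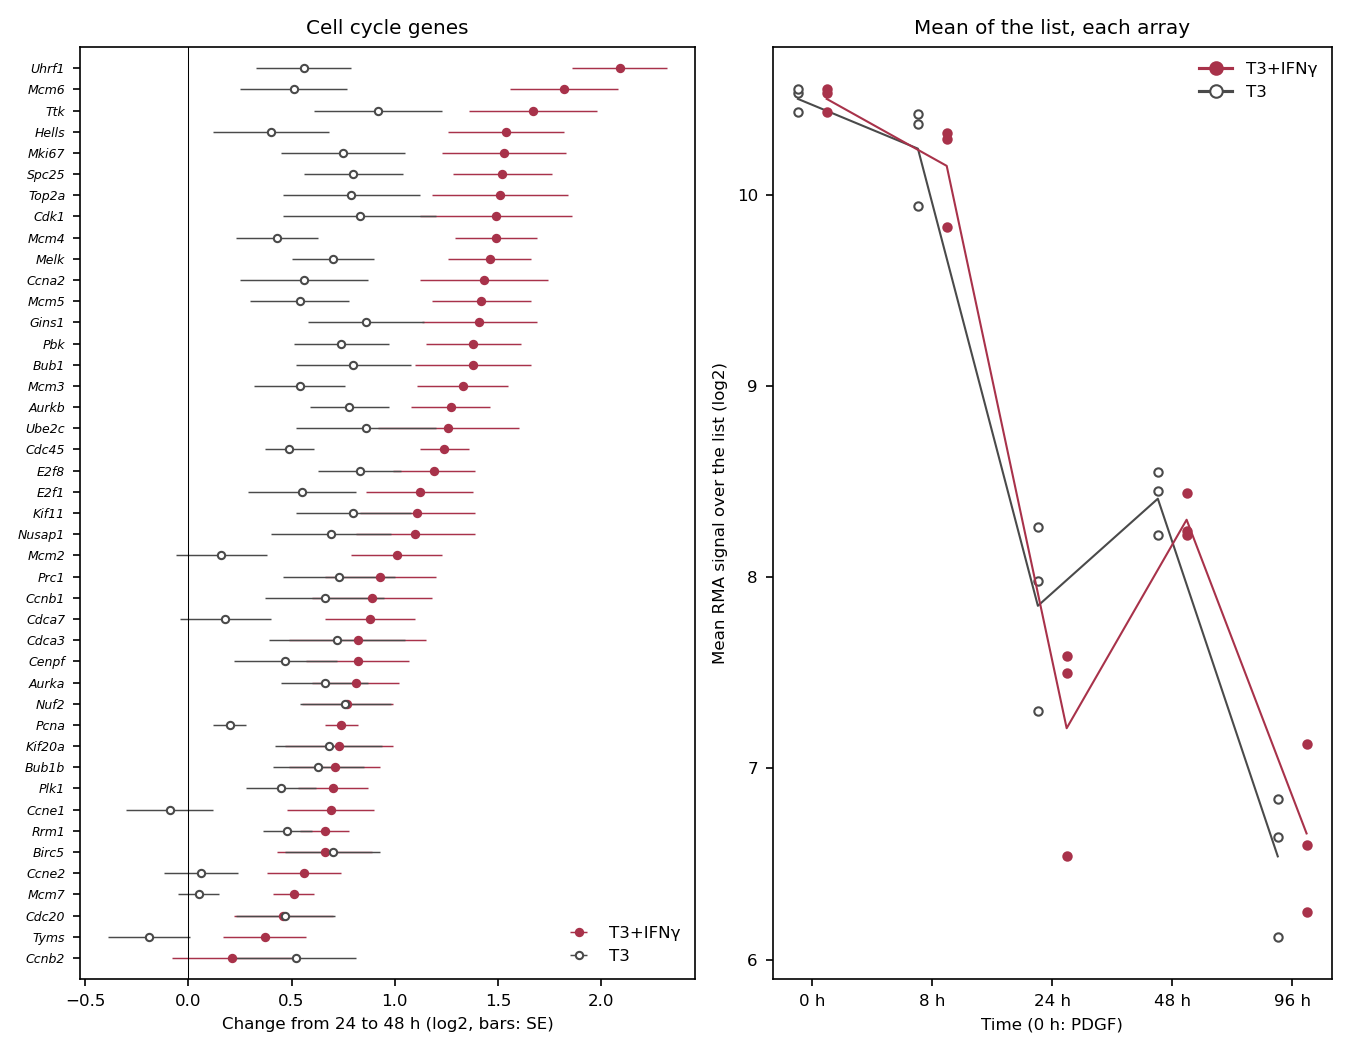
Left, change from 24 h to 48 h (log2, bars are SE) of the 43 cell cycle genes under T3+IFNγ (filled) and T3 (open). Right, mean RMA signal over the list on each array, with lines through group means and time points spaced evenly, which shows the level at 48 h above both 24 h and 96 h.

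The sequence upstream of these genes is given as a description. The genes were listed for their part in the cell cycle, so the motif shares describe such a list. They do not test the rise at this step, and members that were not called were not compared. In the 250 bases before the annotated start (RefSeq, assembly GRCr8, the first listed start where a gene has several), searched on both strands, 31 of the 39 genes called higher had an entry. The CCAAT box (letters CCAAT) was found in 22 of the 31 (71.0%), against 35.1% of the 11700 measured genes with an entry and 34.3% of all 27457 promoters of the table. An E2F-type motif (TTTCCCGC or TTTGGCGC) was found in 6 of 31 (19.4%) against 2.15% and 1.26%, and the cell cycle homology region motif (TTTGAA) in 8 of 31 (25.8%) against 10.9% and 16.0%. E2F factors drive replication genes, and CCAAT boxes are common in promoters of mitotic genes. Matches are letters in a window, and the 3 searches may overlap in a promoter. For Mcm6 the E2F-type match stands in capitals, its first base at position -139 from the start (chr13:42404353-42404602, minus strand), and for Cdk1 the 3 CCAAT boxes stand in capitals as ATTGG, their reverse complement (chr20:19265043-19265292, plus strand).
Mcm6: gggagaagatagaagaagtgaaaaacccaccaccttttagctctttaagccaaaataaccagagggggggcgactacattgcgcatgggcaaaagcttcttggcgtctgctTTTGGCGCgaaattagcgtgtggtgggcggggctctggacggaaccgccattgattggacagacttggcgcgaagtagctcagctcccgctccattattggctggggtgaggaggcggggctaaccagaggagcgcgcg
Cdk1: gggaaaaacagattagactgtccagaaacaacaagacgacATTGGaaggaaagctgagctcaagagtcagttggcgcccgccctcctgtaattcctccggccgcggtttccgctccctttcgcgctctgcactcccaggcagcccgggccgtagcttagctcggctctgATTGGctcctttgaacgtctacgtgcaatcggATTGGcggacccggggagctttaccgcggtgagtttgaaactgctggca

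Of the 12 largest rises 8 had a promoter entry, and 2 of these, Vgf and Scg2, each held 1 full cyclic AMP response element (TGACGTCA, which reads alike on both strands), the site bound by CREB-family factors. Its first base lay at position -90 from the start of Vgf (chr12:25277021-25277270, minus strand) and at -123 from that of Scg2 (chr9:88256867-88257116, minus strand), in capitals here. The same letters were found in 1.7% of all promoters and 2.64% of those of measured genes. Of the 36 genes called higher with a larger change than under T3, 30 had an entry and 2 held it (6.67%), Vgf and Cse1l.
Vgf: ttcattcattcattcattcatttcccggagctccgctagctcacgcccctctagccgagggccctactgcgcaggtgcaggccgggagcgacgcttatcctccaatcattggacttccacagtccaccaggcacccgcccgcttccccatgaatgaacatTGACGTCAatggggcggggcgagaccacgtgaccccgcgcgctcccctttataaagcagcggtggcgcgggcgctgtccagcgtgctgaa
Scg2: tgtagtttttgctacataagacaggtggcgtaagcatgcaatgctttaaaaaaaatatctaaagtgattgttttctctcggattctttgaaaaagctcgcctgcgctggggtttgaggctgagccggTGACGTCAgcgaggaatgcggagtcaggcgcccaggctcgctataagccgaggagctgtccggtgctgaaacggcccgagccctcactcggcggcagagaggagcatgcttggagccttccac

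MAPK feedback and early genes rose in part. Of 23 measured, 9 rose and none fell (39.1% called against 21.4% of all genes, median 0.21). Besides Egr2, the early growth response factor Egr1 rose from 9.42, 9.10 and 9.12 to 10.95, 11.95 and 11.87 (log2 2.37 ± 0.40, limma adjusted p = 0.000226). Dusp6, a phosphatase that limits ERK signalling, rose by 1.48 ± 0.27, from 8.95, 9.28 and 9.24 to 10.40, 10.65 and 10.87. Phlda1 rose by 1.27, the feedback inhibitor Spry2 by 0.97 and Fos by 0.86. Without donor 2 or 3 the number called higher was 4 and 5. Under T3 alone 5 rose and 3 fell, and no gene of the list had a called difference between the steps. Over the course of T3+IFNγ, Egr2 had a mean of 8.98 ± 0.17 under PDGF and of 5.11 ± 0.34 at 24 h, before its level of 8.26 ± 0.22 at 48 h, and was at 5.48 ± 0.16 at 96 h (SD, n = 3).

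Part of the myelin genes rose. Of 39 myelin and mature oligodendrocyte genes, 16 rose and none fell (41.0% called against 21.4% of all genes). The median change was 0.27, with donor medians of 0.36, 0.31 and 0.35. Mbp, myelin basic protein, went from 12.04, 11.30 and 11.17 to 14.06, 13.86 and 14.02 (log2 2.48 ± 0.25, limma adjusted p = 6.32e-07), close to the highest value of the table, 14.5. Mog, a late myelin glycoprotein, went from 6.37, 5.65 and 6.02 to 8.29, 7.58 and 8.29 (log2 2.04 ± 0.37, limma adjusted p = 0.000501). Nfasc, which anchors the paranodal junction, rose by 2.61, the protease gene Adamts4 by 2.39 and Septin4 by 2.05.

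Other myelin genes had small changes that did not pass the test, among them Mal (-0.07), Opalin (-0.03), Mobp (0.41) and Gjb1 (-0.29). Under T3 alone 19 of the 39 rose and 1 fell, with a median of 0.45. The difference between the steps was called for 2, both with less change under IFNγ. Aspa, which breaks down N-acetylaspartate in oligodendrocytes, rose from 7.01, 6.44 and 6.83 to 8.79, 7.81 and 8.68 with IFNγ and from 6.87, 6.32 and 6.61 to 10.76, 9.90 and 9.41 without (difference -1.76 ± 0.36, limma adjusted p = 0.0154). Jam3, an adhesion molecule, changed by -0.01 with IFNγ and rose by 0.91 without (difference -0.92, limma adjusted p = 0.0156).

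Genes of committed and premyelinating oligodendrocytes had 6 of 17 higher and none lower (35.3% called against 21.4% of all genes, median 0.44). Rras2, a small GTPase, rose by 2.49 and Tmem108 by 1.62. Tcf7l2, a factor that marks newly formed oligodendrocytes, went from 11.59, 11.43 and 11.04 to 12.19, 12.14 and 12.15 (limma adjusted p = 0.00754). The count was 11, 3 and 3 without donor 1, 2 and 3. Of 21 fatty acid and myelin lipid genes 9 rose and 1 fell (47.6% called against 21.4% of all genes), with a median of 0.36 against -0.01. Elovl1, which elongates very long fatty acids, rose by 0.83, Cers2, a ceramide synthase of myelin lipids, by 0.72 and Me1, the malic enzyme, by 0.86, whereas Gnpat, the first enzyme of plasmalogen synthesis, fell by 0.53 (limma adjusted p = 5.17e-05). Of 21 sterol synthesis genes 7 rose and none fell (33.3% called against 21.4% of all genes), with a median of 0.43. Tm7sf2, a sterol reductase, led with a rise of 1.78, from 8.83, 8.74 and 8.98 to 11.12, 10.12 and 10.65, followed by Cyp51 (0.72), Idi1 (0.69) and Srebf1 (0.65). Another probe set of Srebf1 had 0.23 and did not pass the test. Without donor 2 or 3 the sterol count was 3 and 1.

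Precursor genes fell in part. Of 25 measured, 11 fell, none rose and 14 did not pass the test (44.0% called against 21.4% of all genes, median -0.31), against 13 falls and a median of -0.48 under T3 alone, and no difference between the steps was called. Pdgfra, the receptor for PDGF-AA, went from 12.66, 12.99 and 12.95 to 12.27, 12.35 and 12.09 (log2 -0.63 ± 0.14, limma adjusted p = 0.00201). Cdo1, a cysteine dioxygenase, fell most, from 9.39, 9.32 and 9.49 to 8.19, 8.07 and 8.13 (log2 -1.27 ± 0.13, limma adjusted p = 1.16e-06), and the Notch ligand gene Dll3 fell by 0.82. Cspg4, which encodes NG2, had a change of -0.62 that did not pass the test (limma adjusted p = 0.0657). The count of falls was 6 and 5 without donor 2 and 3.

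Of 32 lineage transcription factors 5 rose and 10 fell (46.9% called against 21.4% of all genes, median -0.10). The rises were those of Nkx6-2, Myrf, Zfp536, Zfp488 and Klf6. Other probe sets of Zfp536 had 0.62, which was called, and 0.45 and 0.20, which were not. Myrf, the activator of myelin genes, went from 9.46, 9.40 and 8.61 to 10.33, 10.56 and 10.47 (log2 1.29 ± 0.21, limma adjusted p = 0.000174), and Nkx6-2 from 6.70, 6.14 and 5.52 to 8.55, 7.93 and 8.28 (log2 2.14). Falls included the inhibitors of differentiation Id1, Id3 and Id4 and the Notch targets Hey1 and Hes5. Id1 went from 6.23, 10.13 and 10.34 to 6.39, 6.17 and 6.69 (log2 -2.48, limma adjusted p = 0.00717), with donor 1 already low at 24 h as for Id3, and was not called without donor 2 or 3 (limma adjusted p = 0.282 and 0.187). Hey1 fell in all 3 donors, from 10.01, 10.52 and 10.39 to 9.05, 8.72 and 8.61 (limma adjusted p = 0.000284). Without donor 2 or 3 the count of falls was 3 and 2. Olig1 fell by 0.30, and Olig2 (-0.22) and Sox10 (0.01) did not pass the test.

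Genes of the IFNγ program itself were called at a share near that of all genes. Of 45 interferon-stimulated genes 4 rose and 4 fell (17.8% called against 21.4% of all genes, median -0.05). In donors 1 to 3 the list had mean signals of 9.27, 9.26 and 9.36 at the earlier time and of 9.48, 9.14 and 9.32 at the later, while T3 cultures had 5.69, 5.53 and 5.71 at 48 h. Without donor 2 there were 2 rises and no fall, and without donor 3 1 rise and 2 falls. The 4 rises were those of Ifit3 (1.43), Herc6 (0.92), Ifitm3 (0.90) and Cmpk2 (0.45). Herc6, an ISG15 ligase family gene, went from 5.38, 5.47 and 5.38 to 6.27, 6.75 and 5.96 (limma adjusted p = 7.7e-05). Ifit3 differed between donors, from 4.65, 4.25 and 4.71 to 7.28, 4.61 and 6.01 (limma adjusted p = 0.00914), and was not called without donor 1 or 3. The falls were those of Ifitm1 (-0.99), Uba7 (-0.65), Stat2 (-0.40) and Rig1 (-0.57), a cytosolic RNA sensor, and Uba7, the activating enzyme of ISG15, went from 8.20, 8.24 and 8.21 to 7.72, 7.52 and 7.48.

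Few class I antigen presentation genes were called, in a short list whose share was not tested against that of all genes. Of 21 class I and immunoproteasome genes 0 rose and 2 fell (9.5% called against 21.4% of all genes, median 0.06). Of all genes, 7.53% rose and 13.9% fell. The list had 0 rises also at every alternative setting run for it. Psmb8, Psmb9 and Psmb10, the catalytic immunoproteasome subunits, had changes of -0.08, -0.12 and -0.17. Nlrc5, the transactivator of class I genes, fell from 9.01, 9.57 and 8.43 to 8.08, 8.31 and 8.14 (log2 -0.83 ± 0.19, limma adjusted p = 0.00395), and the chaperone gene Calr fell by 0.53. Psmb10 and the proteasome activator Psme1 had called differences between the steps (1.41 and 0.86, limma adjusted p = 0.0123 and 0.0198), since they fell under T3 alone.

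In the class II list 3 of 11 genes fell and none rose (27.3%, median -0.28). Of all genes, 21.4% were called and 13.9% fell. RT1-Da, a class II chain, went from 12.33, 12.38 and 12.65 to 11.82, 11.49 and 11.90 (log2 -0.71 ± 0.21, limma adjusted p = 0.0188), RT1-Db1 fell by 0.68 and RT1-DMa, which loads peptides, by 0.63, whereas Cd74, the invariant chain, had 0.36 (limma adjusted p = 0.422). Another probe set of RT1-Db1 had -0.22 and did not pass the test. Probe sets of RT1 genes may share signal with near-identical copies. Without donor 2 none of the class II genes was called lower, and without donor 3 or without the array of donor 2 at 24 h 1 was. Of 5 GTPase genes 2 fell (40.0% called against 21.4% of all genes). Gbp4 went from 10.15, 9.90 and 9.93 to 8.85, 9.32 and 8.90 (log2 -0.97, limma adjusted p = 0.000998) and Igtp fell by 0.54. Of 17 genes of the receptor, JAK, STAT and SOCS list, Ptpn11 rose (0.54) and Jak1 (-0.45) and Stat5a (-0.40) fell (17.6% called). Other probe sets of Igtp (-0.44) and Jak1 (-0.34) did not pass the test. The 20 microglia and macrophage markers, cells that also answer IFNγ, had no call by limma in either direction (median -0.04), against 21.4% of all genes called. At an unadjusted limma p below 0.05 there were 2 higher and 1 lower, and the share of all genes at that limit was not computed. Their list means were 6.67, 6.44 and 7.46 at the earlier time and 6.62, 6.27 and 7.75 at the later.

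**Figure D3:**
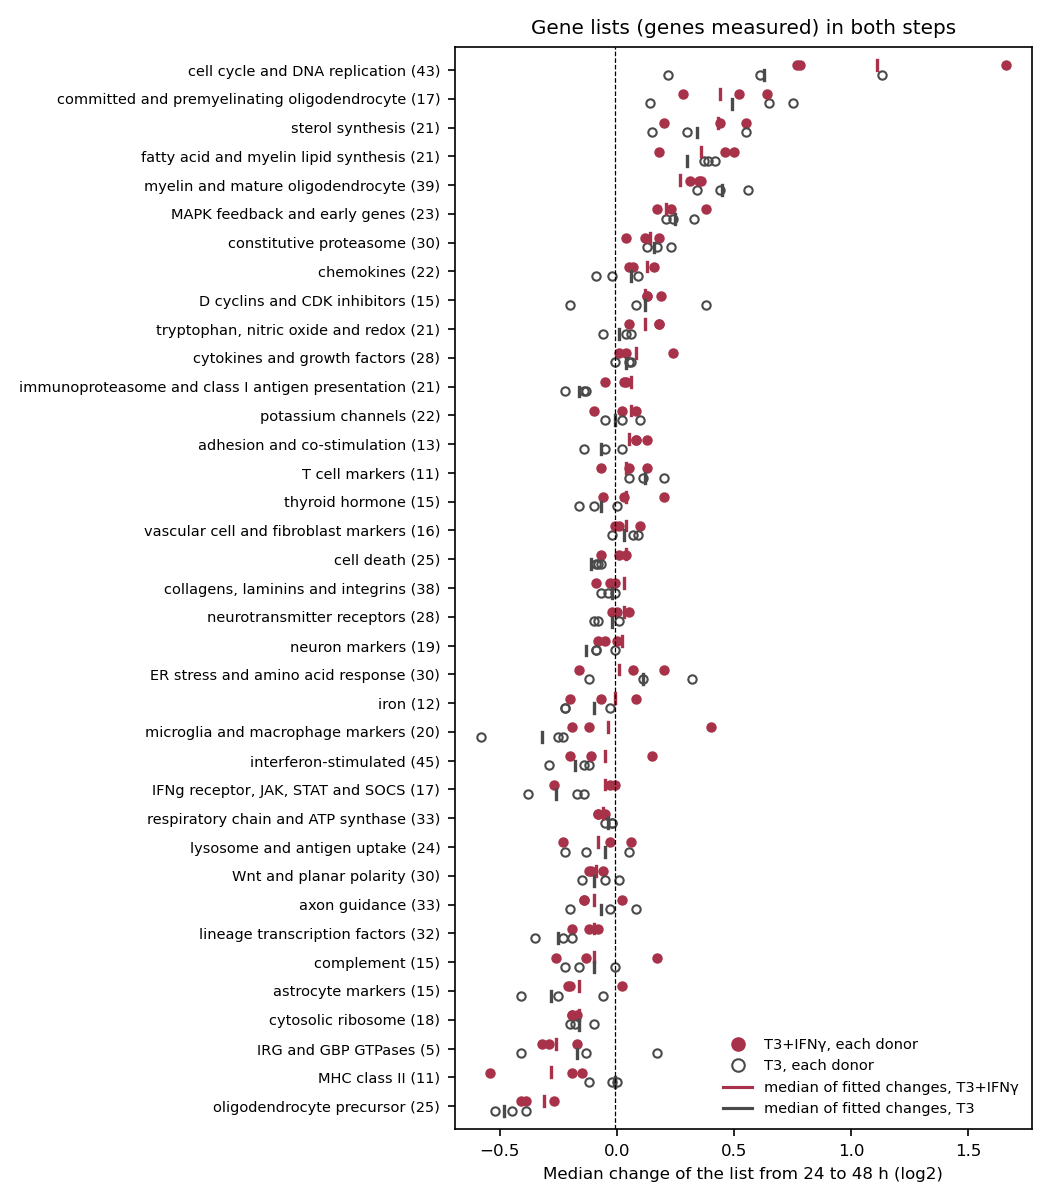
Median change (log2) of each of the 37 gene lists from 24 h to 48 h, with the number of genes measured in brackets. Points are donors and short lines the medians of the fitted changes, under T3+IFNγ (filled) and T3 (open), and the dashed line is the median of all genes; by the fitted medians under T3+IFNγ, the cell cycle list lies farthest to the right and the precursor list farthest to the left.

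The same step without IFNγ gave 1306 genes higher and 2321 lower (9.19% and 16.3% of all, 25.5% called), of which 266 and 178 by 2-fold or more (1.87% and 1.25%). The 2 steps share donors but no arrays. Of the genes higher with IFNγ, 596 were also higher under T3 (55.6% of the first list and 45.6% of the second), and of those lower 1295 were lower in both (65.5% and 55.8%). Across the 14217 genes the 2 sets of changes had a Pearson r of 0.737, given as a description. The donors' own changes under T3+IFNγ had r between 0.568 and 0.74.

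**Figure D4:**
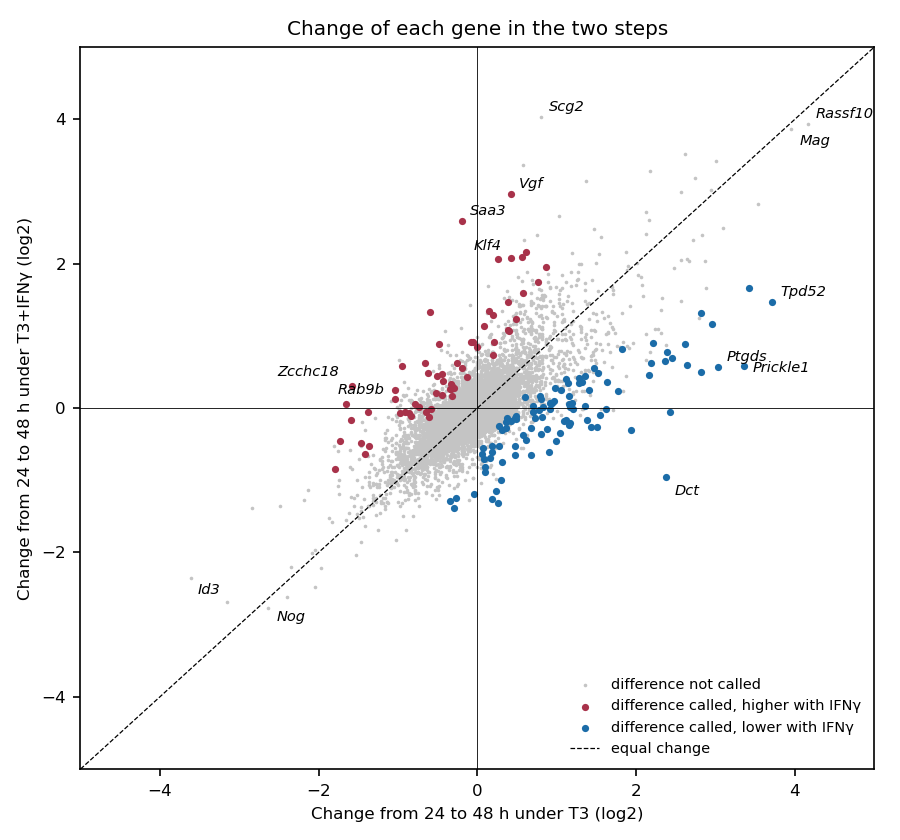
Change of each of the 14217 genes from 24 h to 48 h under T3+IFNγ (vertical) against that under T3 (horizontal), both log2, with the 159 genes whose difference was called in colour. Most genes lie along the line of equal change, and Saa3, Vgf, Dct and Prickle1 lie far from it.

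The difference between the steps was called for 159 genes (1.12% of all), 60 with the higher value of the change with IFNγ (0.422%) and 99 with the lower (0.696%). By 2-fold or more it was 24 and 52 (0.169% and 0.366%). Of the 60, 36 rose with IFNγ, and another 19 fell under T3 alone with no call with IFNγ. Of the 99, 58 rose under T3 alone with no call with IFNγ, and 15 rose in both. These calls were the least stable, with 211, 4 and 50 genes without donor 1, 2 and 3, 86 without the array of donor 2 at 24 h and 72 with no donor block.

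Saa3, an acute phase protein gene, had the largest positive difference among those called. It went from 5.36, 6.40 and 7.45 to 8.45, 8.19 and 10.34 with IFNγ and from 4.86, 4.83 and 5.25 to 4.82, 4.71 and 4.83 without (difference 2.79 ± 0.54, limma adjusted p = 0.0116). Donor 3 was highest at both times, as it was for the mean of the microglia markers, whose part in the result was not tested. Vgf was next among the called differences with 2.53 ± 0.49 (limma adjusted p = 0.0118). Klf4, a transcription factor also induced by early signals, went from 4.99, 4.80 and 4.86 to 7.17, 6.68 and 7.04 with IFNγ, and from 3.80, 4.05 and 3.98 to 4.73, 4.05 and 4.30 without (difference 1.66 ± 0.25, limma adjusted p = 0.00188). Pcolce, which enhances collagen processing, rose by 2.06, with a difference of 1.81 ± 0.39. The kinase gene Cdk14 rose by 2.16, with a difference of 1.55 ± 0.24, at its brightest probe set, but its other 3 probe sets had changes of 0.57, 0.25 and 0.09, of which the last 2 did not pass the test.

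Several of these genes stood higher at 48 h than on either side of it. In T3+IFNγ, Vgf averaged 4.85 ± 0.05, 7.80 ± 0.42 and 5.39 ± 0.33 at the 3 times from 24 h to 96 h, and Klf4 4.89 ± 0.10, 6.96 ± 0.26 and 4.84 ± 0.35 (SD, n = 3). Scg2, with 3.99 ± 0.30, 8.02 ± 1.0 and 5.19 ± 0.96, and Calcb, with 5.52 ± 0.21, 8.88 ± 1.19 and 4.97 ± 0.15, did so too, although Calcb had 10.67 ± 0.16 under PDGF. Their differences from the T3 step, 3.22 and 2.78, did not pass the test (limma adjusted p = 0.0853 and 0.126). Pcolce by contrast went on from 8.05 ± 1.16 at 48 h to 10.75 ± 0.22 at 96 h. For Rab9b (1.71) and Zcchc18 (1.88) the difference came with a fall under T3 alone, of 1.66 and 1.58 on the log2 scale, and changes of 0.05 and 0.30 with IFNγ, and Nptxr, the neuronal pentraxin receptor (1.93), rose by 1.33 with IFNγ at its brightest probe set and had 0.03 at another.

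Of the 99 lower differences, a further 8 fell with IFNγ and rose under T3, and 18 fell with IFNγ with no call under T3. The 8 largest lower differences were all of genes that rose under T3. Dct, dopachrome tautomerase, went from 7.25, 6.13 and 6.24 to 6.01, 5.49 and 5.28 with IFNγ, a change that did not pass the test (limma adjusted p = 0.0722), and from 7.02, 5.85 and 5.97 to 10.13, 8.76 and 7.10 without (difference -3.33 ± 0.52, limma adjusted p = 0.00218). Prickle1, a planar polarity gene, went from 6.0, 6.41 and 6.09 to 7.27, 6.27 and 6.71 with IFNγ and from 6.52, 7.07 and 7.14 to 11.07, 10.34 and 9.41 without (difference -2.78 ± 0.39, limma adjusted p = 0.00156). Ptgds, a prostaglandin synthase of mature oligodendrocytes, went from 3.98, 3.85 and 4.41 to 4.80, 4.56 and 4.59 with IFNγ and from 4.38, 4.10 and 4.29 to 8.46, 7.41 and 5.99 without (difference -2.46 ± 0.45, limma adjusted p = 0.00859). Under T3 alone donor 1 was highest and donor 3 lowest at 48 h for all 3.

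At 96 h these genes were high with IFNγ too. Dct had 12.24 ± 0.05 against 12.10 ± 0.06 under T3, Ptgds 11.07 ± 0.32 against 11.03 ± 0.22 and Prickle1 10.66 ± 0.18 against 11.24 ± 0.11 (SD, n = 3). Kndc1 and Trim36 had differences of -2.24 and -2.05 and changes of -0.31 and 0.59 with IFNγ. Tpd52 rose in both steps, by 1.47 with IFNγ and 3.71 without. Gadd45b, a stress response gene, and Slc12a7, a potassium chloride cotransporter, differed in another way, since IFNγ cultures were higher at 24 h: Gadd45b had 7.75 with IFNγ and 5.75 without at 24 h, and 7.69 and 8.17 at 48 h.

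**Figure D5:**
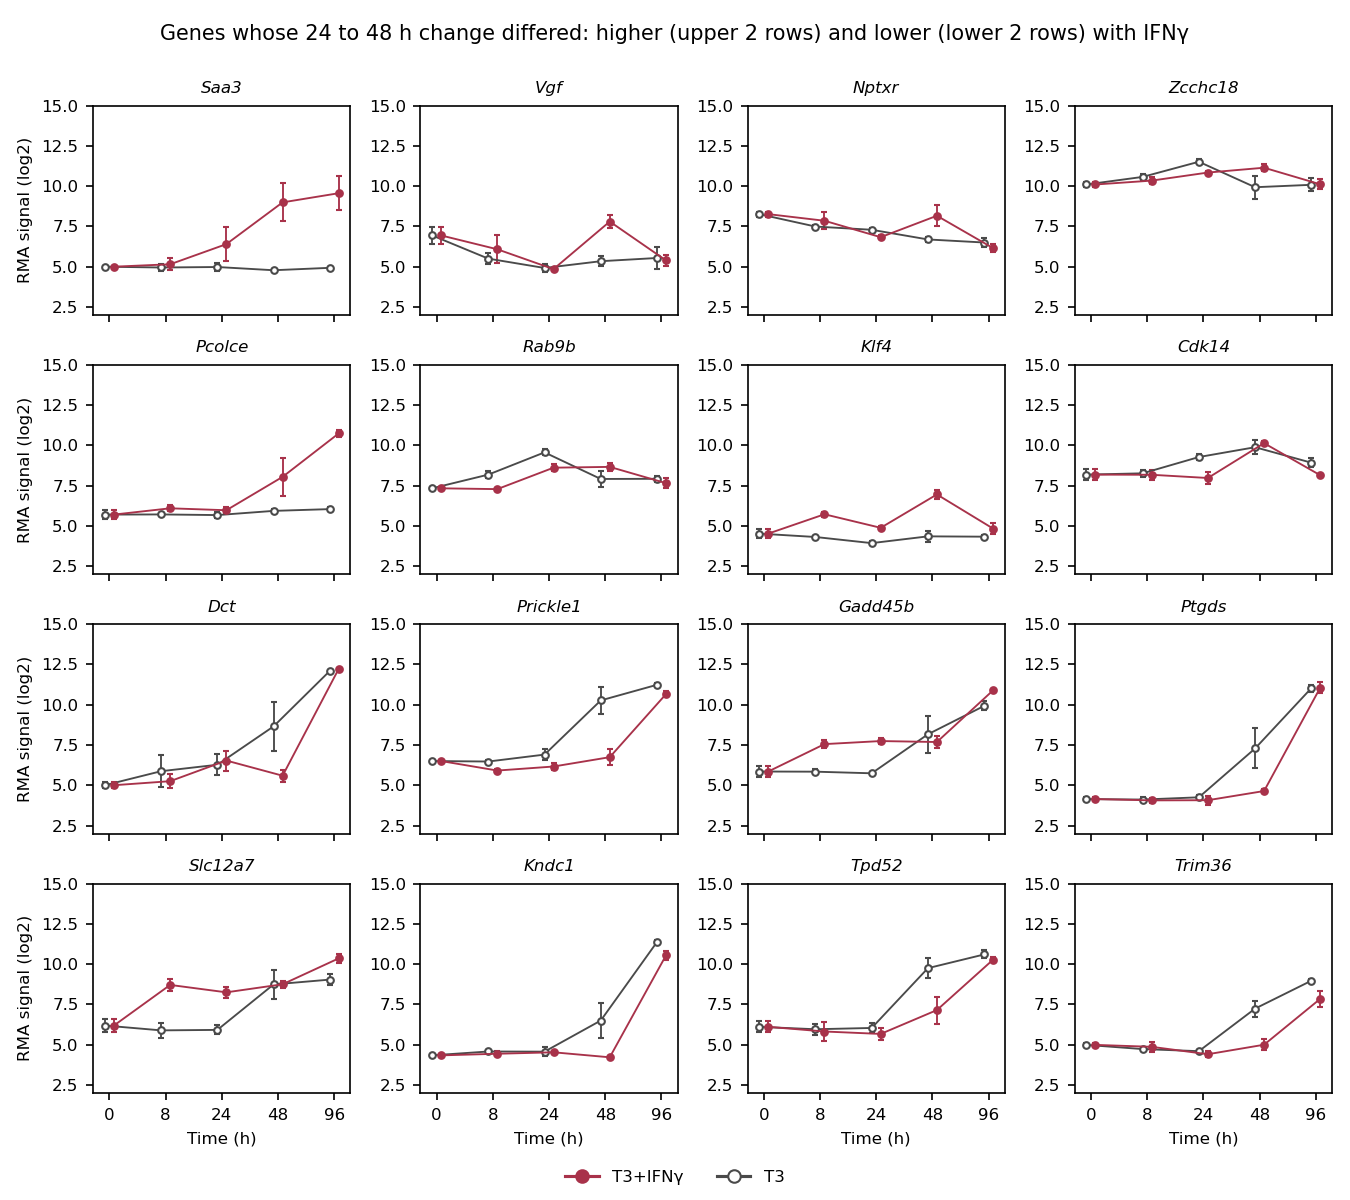
Mean RMA signal (log2, bars are SD, n = 3) over the time course of the 8 genes with the largest called positive and the 8 with the largest called negative difference, under T3+IFNγ (filled) and T3 (open), with PDGF at 0 h and time points spaced evenly. Vgf and Klf4 stand highest at 48 h with IFNγ, and Dct, Prickle1 and Ptgds rise by 48 h under T3 and by 96 h in both.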

How the data were processed

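Gene expression was measured on Affymetrix rat arrays of 27 cultures, 3 donors in each of 9 groups. The authors' deposited values are RMA signals on the log2 scale (31099 probe sets, array medians 5.95 to 6.03), used as deposited without further normalization or a filter on low values. The submitters' processing notes name RMA and limma, without versions. For each of 14217 genes the brightest single-symbol probe set over all 27 arrays was taken, 4525 genes having more than 1, and 57 control, 436 several-symbol and 9831 unnamed probe sets were left out. The T3+IFNγ step, the T3 step and their difference were contrasts of 1 limma fit (version 3.58.1, R 4.3.3) over all arrays with group and donor as terms, with Benjamini-Hochberg adjustment over all genes and calls at an adjusted p below 0.05.

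The labels give the same donors in every group, so arrays of a donor were paired. The correlation of their deviations from group means had a median of 0.3545, against -0.1885 between donors. Centring on the mean of 3 arrays itself pushes the values between donors below those within a donor. These medians are therefore a description and no test of the pairing. With 3 donors per group, the number of arrays limits the precision.

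Genes named are the 12 largest rises and falls called with 1 sign in all 3 donors, the 8 largest called differences on each side, up to 4 called members of each of 37 gene lists (849 genes), members called against their list, up to 3 of the brightest members of a list without a call, and cell type markers. Further members of a list given by value, and a few other genes so marked, were chosen after their values were seen. Members and lists were chosen with earlier results of these data known. Of 84 other probe sets of called named genes, 54 were called the same way, 30 were not called and 0 were called the other way. The tests were tested on simulated data. The simulated arrays held the same change in every donor, so they say nothing about steps that differ between donors.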

Additional observations from a re-analysis of the deposited data

Results flagged for a closer look

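For 16 genes the change from 24 h to 48 h under T3+IFNγ differed from that under T3, by the limma test of the difference itself. On the log2 scale, T3+IFNγ minus T3, the difference was 2.79 for Saa3, 2.53 for Vgf, 1.93 for Nptxr, 1.88 for Zcchc18, 1.81 for Pcolce, 1.71 for Rab9b, 1.66 for Klf4 and 1.55 for Cdk14. It was -3.33 for Dct, -2.78 for Prickle1, -2.48 for Gadd45b, -2.46 for Ptgds, -2.31 for Slc12a7, -2.24 for Tpd52, -2.24 for Kndc1 and -2.05 for Trim36. All 16 kept their direction in every alternative run that could test them, but without donor 2 the call held for 1 of the 16 (Klf4). With only the arrays of the groups compared 8 of the 16 lost their call, and without donor 3 4 did, Klf4 among them (limma adjusted p = 0.14).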

How the results depend on the processing

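Counts of called genes depended most on the donors. Leaving out 1 donor or the array of donor 2 at 24 h, the T3+IFNγ step had between 1138 and 3335 genes called (466 to 1102 higher, 503 to 2233 lower), the T3 step between 1464 and 3747, and the difference between the steps between 4 and 211 (3 to 103 higher, 1 to 108 lower). The fit without the array of donor 2 at 24 h was chosen after seeing the data. With no replicate block, that is without donor pairing, the T3+IFNγ step had 2168 genes called (773 higher, 1395 lower) and the difference 72 (22 higher, 50 lower). With only the arrays of the groups compared, the step had 1933 (1152 lower) and the difference 72 (32 higher, 40 lower). Median centring left 39 higher differences. Donor as a random term, repeated quantile normalization, a filter on low values, the mean or the most variable probe set of a gene, and the trended robust variance moved none of these counts by over 1.5 times. Of 155 called named genes, 74 were called in every alternative. 123 stayed called with no replicate block, 94 without donor 2 and 91 without donor 3. Only Col4a1 changed sign, with a change of 0.01 at its most variable probe set. The filter on low values left no T cell marker to summarize. The cause of these shifts was not tested.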

Other observations

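Single genes outside the lists, chosen after their values were seen because their difference between the steps was called, are given as values. Pole2, a subunit of DNA polymerase epsilon, went from 6.54, 6.64 and 6.53 at 24 h to 7.80, 7.87 and 7.90 at 48 h of T3+IFNγ (difference from the T3 step 1.09 ± 0.26, limma adjusted p = 0.0453). The DNA ligase gene Lig1 (0.72), the primase gene Prim1 (0.69), the repair ligase gene Rad18 (1.08) and the mitotic inhibitor kinase gene Wee1 (1.08) had differences of the same sign. All these rest on a fit in which 4 differences in all were called without donor 2. S1pr5, a sphingosine phosphate receptor of oligodendrocytes, rose by 1.51 under T3 alone and had -0.26 with IFNγ (difference -1.77, limma adjusted p = 0.0116).

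The remaining lists are given by their counts, against 7.53% of all genes higher and 13.9% lower, so that falls outnumbered rises over all genes too. Of 22 chemokine genes 3 rose (Ccl19, Cxcl14, Cxcl1) and Cx3cl1 fell from 8.66, 8.60 and 8.49 to 7.73, 7.68 and 7.58 (limma adjusted p = 4.05e-05). Of 28 cytokine and growth factor genes Pdgfa (1.43), Il15 (0.73) and Cntf rose and Il33 fell (-0.87). The 18 cytosolic ribosome genes measured all had changes below 0, and 6 fell, by at most 0.42 on the log2 scale. Of 33 axon guidance genes 5 rose and 5 fell, with Ephb1 (1.88) and Sema4d (1.53) in front, and of 22 potassium channel genes Kcne4 rose (1.94) and 4 fell. Of 19 neuron markers 2 rose and 5 fell, Dcx by 1.37, and of 15 thyroid hormone genes 2 rose and 4 fell, with Thrsp (1.79) in front. The ER stress list had 6 rises and 2 falls of 30 and the proteasome list 4 rises of 30. Falls and rises were 6 and 1 of 30 Wnt genes (23.3% called against 21.4% of all), 5 and 1 of 38 matrix and integrin genes (15.8%), 6 and 2 of 33 respiratory chain genes (24.2%), 2 and 0 of 12 iron genes (16.7%), 3 and 2 of 24 lysosome genes (20.8%) and 2 and 1 of 28 neurotransmitter receptor genes (10.7%). Of 21 redox genes 4 rose and 0 fell, cell death genes had 2 of each of 25, and 1 of 16 vascular markers fell. Of 13 adhesion, 15 complement and 11 T cell genes none was called by limma, against 21.4% of all genes. At an unadjusted limma p below 0.05 they had 2 higher and 1 lower, 2 higher and 1 lower, and 2 higher and 0 lower. The share of all genes at that unadjusted limit was not computed, so these unadjusted counts have no background to be read against. Most list counts depended on which donors were included, as did the count over all genes. Over all 37 lists the number called was lower by more than 1.5 times in 29 without donor 2 and in 26 without donor 3. The count over all genes was lower by more than 1.5 times as well, from 3048 to 1138 without donor 2 and to 1246 without donor 3. A list that moved with all genes would pass the same limit. Without donor 1 it was lower by as much in 2 and higher in 7. These counts do not say which donor changed most.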
